A study of Homo sapiens with 10 samples.

Results

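A set of 8 genes of short structured RNAs were examined in K562 cells: RNVU1-25 and RNU6-918P, listed as copies of the U1 and U6 small nuclear RNAs, RN7SK, the 7SL genes RN7SL1, RN7SL2 and RN7SL827P, and RMRP and RPPH1, the RNA subunits of RNase MRP and RNase P. They were chosen by their total reads under AZ-5576, where several of them stood higher, so every value of theirs under AZ-5576 is given below as a description, with no test. Of the 8 genes, 6 were matched to a row of the 59204 human rows. RN7SK was matched by its position to the row ENSG00000202198. RPPH1 was matched to the row ENSG00000259001, a longer gene model of 638 bases that contains it on the same strand. No row was matched to RN7SL1 or RN7SL2, and they were not analysed here.

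K562 is an established erythroleukaemia line. All cells were labelled for 12 h with 30 µM 4-thiouridine, in medium renewed every 3 h, and then moved to 3 mM uridine. At this point 1 library was taken (0 h). The chase medium held DMSO, 1 µM JQ1, an inhibitor of the BET bromodomain proteins, or 1 µM AZ-5576, an inhibitor of the elongation kinase CDK9, and 1 library was taken from each at 2, 4 and 8 h. This gives 10 libraries in all, each condition is 1 library with no replicate, and both inhibitor comparisons share the 0 h and DMSO libraries. The p-values measure only how the libraries scatter about a time-course model, a scatter that may be technical.

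Libraries held 10293371 to 16008906 reads in the total table, 2031796 to 3868420 in the authors' nascent table, whose reads are called labelled here, and 1208073 to 2366155 in the fly table. RNA of fly S2 cells was added at 5% of the purified RNA. A value per 1000000 fly reads is therefore relative to the mass of that RNA and not to the number of cells. A change in the number of cells, or in the mass of RNA per cell, is not seen on this scale. On this scale the median of 11797 genes differed from DMSO by -0.25, -0.67 and -1.63 log2 units at 2, 4 and 8 h of AZ-5576, and by -0.33, -0.29 and -0.31 under JQ1. The reads carried the globin genes that define these cells, with HBG1 between 59843 and 96862 reads, while the T cell gene CD3E had 0 to 8 and the liver gene ALB 1 to 5. The epithelial keratin gene KRT18 had 1745 to 3381 reads.

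U1 base-pairs with the 5′ splice site, and U6 sits in the catalytic centre of the spliceosome. U1 is made by RNA polymerase II and its end is cut by the Integrator complex, whereas U6, 7SK, 7SL, RMRP and RPPH1 are made by RNA polymerase III. 7SK holds P-TEFb, the complex of CDK9, in an inactive form together with HEXIM proteins, and 7SL is the scaffold of the signal recognition particle. The mature forms carry no poly(A) tail, and these libraries were primed with oligo-dT at A-rich 3′ ends, so the rows count only molecules or stretches that such a primer reached. Many of these genes also have near-identical copies, and the authors' treatment of reads that match several copies was not stated in the labels or files. The values therefore belong to the rows and may not follow the abundant mature RNAs.

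The sequences below show how far RNVU1-25 departs from its near copy and from the canonical U1, and which ends hold runs of A, and are GENCODE v29 transcripts placed on GRCh38, written 5′ to 3′. For RNVU1-25 and its near copy ENSG00000273727, capitals mark the positions at which the pair differ; the canonical RNU1-1 is given in lower case. For RNU6-918P, the end of the RN7SK row and the end of the model that contains RPPH1, capitals mark runs of at least 5 A, to which an oligo-dT primer could pair; only the last 60 bases of the latter 2 are shown.

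RNVU1-25: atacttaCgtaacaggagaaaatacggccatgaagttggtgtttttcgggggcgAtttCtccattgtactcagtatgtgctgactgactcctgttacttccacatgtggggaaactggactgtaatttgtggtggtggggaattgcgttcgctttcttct
ENSG00000273727: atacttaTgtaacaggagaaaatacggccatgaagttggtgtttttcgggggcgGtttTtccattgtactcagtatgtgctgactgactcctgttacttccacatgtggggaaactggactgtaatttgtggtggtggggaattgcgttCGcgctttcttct
RNU1-1: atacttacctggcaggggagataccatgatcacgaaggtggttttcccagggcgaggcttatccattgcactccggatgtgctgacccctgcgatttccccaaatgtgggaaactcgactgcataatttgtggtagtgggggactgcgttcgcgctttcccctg
RNU6-918P: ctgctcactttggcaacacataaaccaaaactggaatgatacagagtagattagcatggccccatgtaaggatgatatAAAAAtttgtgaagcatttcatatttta
RN7SK row, last bases: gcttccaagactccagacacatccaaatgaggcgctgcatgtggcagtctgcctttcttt
Model containing RPPH1, last bases: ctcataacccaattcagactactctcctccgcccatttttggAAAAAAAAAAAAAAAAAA

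RNVU1-25 lies at chr1:146409903-146410062 on the plus strand and is 160 bases long. It was 72.5% identical to RNU1-1 over aligned columns, and 96.9% identical to ENSG00000273727, from which it differed in 5 of 162 columns. ENSG00000273727 (chr1:120354987-120355148, plus strand) is listed only as U1. Both lack the string ACTTACCTG, which RNU1-1 holds from base 3 and which contains the bases that pair with the 5′ splice site; 46 of 136 U1 rows (33.8%) hold it on the RNA strand. Both hold AATTTGTGG, which contains the U-rich core of the Sm site, from base 124, as do 62 of the 136 rows (45.6%). The string searches are descriptions and show no binding. RNU6-918P (chr9:98032230-98032335, plus strand, 106 bases) and RN7SL827P (chr6:73487590-73487877, minus strand, 288 bases) complete the set of copies. The longest run of A was 4 bases in RNVU1-25, 5 in RNU6-918P, 3 in the RN7SK row and 3 in RMRP. RPPH1 itself had a longest run of 2, but the model that contains it ends in 18 A. Of 3965 annotated small nuclear and miscellaneous small RNA rows, 733 (18.5%) hold a run of at least 5 A, and 26.5% of these had a read in some library against 20.0% of the rows without one.

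RNVU1-25 had the most reads of the described genes, 1956 over the 10 libraries. It had 9 reads at 0 h, then 38, 30 and 45 at 2, 4 and 8 h of DMSO, 105, 99 and 88 at those times of JQ1, and 246, 291 and 1005 of AZ-5576. Per 1000000 fly reads these are 6.08 at 0 h, 31.5, 21.9 and 25.5 with DMSO, 65.5, 54.3 and 50.4 with JQ1, and 181, 198 and 425 with AZ-5576. The 3 arms did not overlap: every AZ-5576 library was above every JQ1 library, and every JQ1 library above every DMSO library. In DMSO the row stayed flat after a first step up from 0 h, whereas in AZ-5576 it kept climbing. The ratio of AZ-5576 to DMSO was 5.75 at 2 h (exact 95% interval 4.07 to 8.31), 9.04 at 4 h (6.20 to 13.6) and 16.6 at 8 h (12.3 to 23.0). These intervals, like the others below, cover counting error only, since reads without molecular identifiers are not independent molecules.

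The near copy ENSG00000273727 had the same shape. It had 0 reads at 0 h, 8, 2 and 3 with DMSO, 27, 16 and 21 with JQ1 and 82, 90 and 452 with AZ-5576. Its AZ-5576 to DMSO ratio was 9.10 at 2 h (4.41 to 21.8), 41.9 at 4 h (11.3 to 352) and 112 at 8 h (38.2 to 547), the last 2 against 2 and 3 reads. Since the pair differ in 5 columns, reads could have been split between them. RNVU1-26, which is 98.1% identical to RNVU1-25, had 0 reads at 0 h and with DMSO, 6, 1 and 1 with JQ1 and 7, 24 and 34 with AZ-5576. RNVU1-24, 96.9% identical, had 13 of its 23 reads at 8 h of AZ-5576. The canonical genes RNU1-1, RNU1-2, RNU1-3 and RNU1-4 are listed at 0 reads in all 10 libraries.

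The less similar U1 rows with the most reads had other courses. RNVU1-34, 66.3% identical, had 65 reads at 0 h, 80, 74 and 167 with DMSO, 64, 126 and 305 with JQ1 and 75, 74 and 104 with AZ-5576. Its highest library was JQ1 at 8 h, and AZ-5576 at 8 h was below DMSO per fly read, at a ratio of 0.464. RNVU1-4 (64.9% identical) was at 0.589 and RNVU1-30 at 0.447 in the same comparison. Of 11 U1 rows with at least 20 reads and under 90% identity, 4 were above DMSO at 8 h of AZ-5576 and 7 below it (pseudocount 0.5). Among the 4, picked after their values were seen, RNVU1-14 (71.0% identical) had 14 reads against 8 in DMSO and RNVU1-27 (69.9%) 6 against 0. All rows with RNU1 or RNVU1 symbols other than RNVU1-25 together were at 0.689 of DMSO (0.581 to 0.816) at 8 h of AZ-5576; ENSG00000273727 carries no such symbol and is not in that sum. With RNVU1-25 in it, the family sum stood 1.50 log2 units above DMSO.

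**Figure D1:**
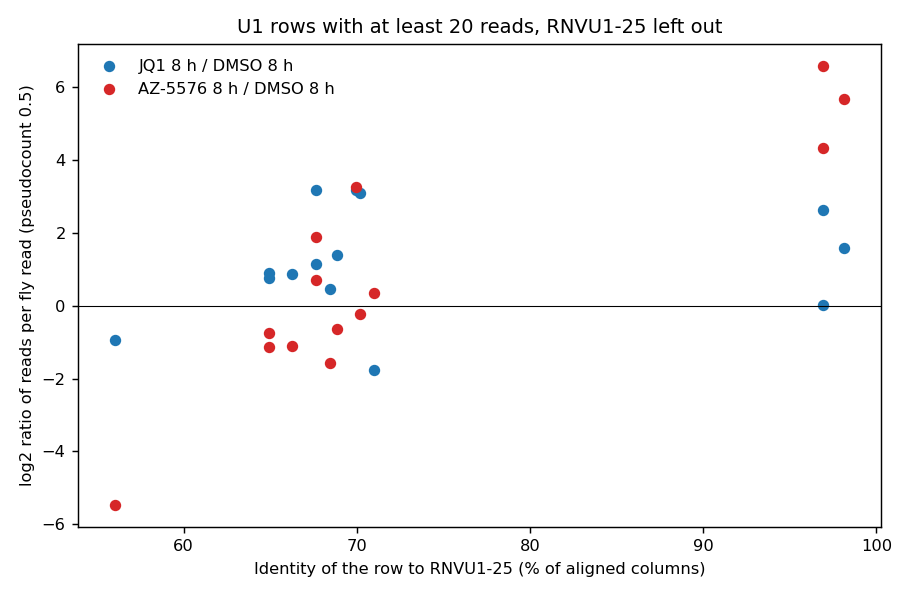
Log2 ratio of reads per fly read at 8 h, inhibitor over DMSO with a pseudocount of 0.5 (vertical axis), against the identity of each U1 row to RNVU1-25 in percent (horizontal axis), for U1 rows with at least 20 reads; 1 point is 1 row and RNVU1-25 is left out. The 3 rows at 96.9% to 98.1% identity hold the highest AZ-5576 points, while rows near 65% lie below 0 under AZ-5576 and above 0 under JQ1.

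RNU6-918P, a U6 copy, was low without an inhibitor. It had 8 reads at 0 h, 3, 8 and 0 with DMSO, 25, 38 and 1 with JQ1 and 47, 106 and 211 with AZ-5576. The AZ-5576 libraries were all above the others and ordered by time, while JQ1 was above DMSO at 2 and 4 h and at 1 read at 8 h. The AZ-5576 to DMSO ratio was 13.9 at 2 h (4.48 to 69.8) and 12.3 at 4 h (6.04 to 29.3). At 8 h it was 52.4 with the DMSO library taken at the limit that 0 reads allow, 3 reads. This leaves out the counting error of the AZ-5576 reads. Most other U6 reads did not follow. RNU6-817P, the U6 row with the most reads after it, had 42, 28 and 31 reads with DMSO, 42, 45 and 55 with JQ1 and 37, 31 and 56 with AZ-5576. RNU6-1300P had 4, 0 and 0 reads with DMSO, and 0, 6 and 131 with AZ-5576. The 1258 other U6 rows together were at 0.933 of DMSO (0.835 to 1.04) at 8 h of AZ-5576.

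RN7SL827P, a copy of the 7SL RNA, had 0 reads at 0 h and in all 3 DMSO libraries, each of which allows up to 1.70 to 2.48 reads per 1000000 fly reads. It had 12, 3 and 2 reads in JQ1 and 7, 78 and 169 in AZ-5576. With the 0 DMSO reads counted as 3, it was 2.07-fold higher under AZ-5576 at 2 h, 24.2-fold at 4 h and 42.0-fold at 8 h. These folds leave out the counting error of the AZ-5576 reads, which were only 7 at 2 h. The row passed the low-count limit only through its AZ-5576 libraries. The other 672 7SL rows together were at 0.460 of DMSO (0.376 to 0.561) at 8 h. RN7SL753P, among the 3 other 7SL rows with the most reads, had 9, 7 and 2 reads with DMSO, 30, 74 and 5 with JQ1 and 15, 22 and 19 with AZ-5576.

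The RN7SK row (chr6:52995620-52995950, plus strand, 331 bases) changed least. It had 15 reads at 0 h, 14, 18 and 18 with DMSO, 14, 23 and 32 with JQ1 and 18, 21 and 63 with AZ-5576. The arms lay within their counting intervals of each other at 2 and 4 h, and only at 8 h was AZ-5576 apart from DMSO. The ratio was 1.14 at 2 h (0.536 to 2.48), 1.09 at 4 h (0.552 to 2.16) and 2.61 at 8 h (1.52 to 4.68). The 289 other 7SK rows, which are pseudogene copies, together were at 0.688 of DMSO (0.378 to 1.25) at 8 h.

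The row that contains RPPH1 (chr14:20343048-20343685, minus strand; RPPH1 itself at 20343075 to 20343407) had 5 reads at 0 h, 9, 5 and 18 with DMSO, 21, 28 and 22 with JQ1 and 31, 44 and 148 with AZ-5576. Per fly read, all 3 AZ-5576 libraries were above all JQ1 libraries, and these above all DMSO libraries. The AZ-5576 to DMSO ratio was 3.06 at 2 h (1.42 to 7.30), 8.20 at 4 h (3.26 to 26.5) and 6.13 at 8 h (3.75 to 10.6). The model shares 104 bases with PARP2 on the opposite strand, and the labels and files do not state whether the counting used strand. PARP2, a DNA repair enzyme, was at 0.203 of DMSO (0.156 to 0.260) at 8 h of AZ-5576. RMRP (chr9:35657751-35658018, minus strand) had 7 reads in all, 3 of them at 8 h of AZ-5576, too few for a comparison at this depth.

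**Figure D2:**
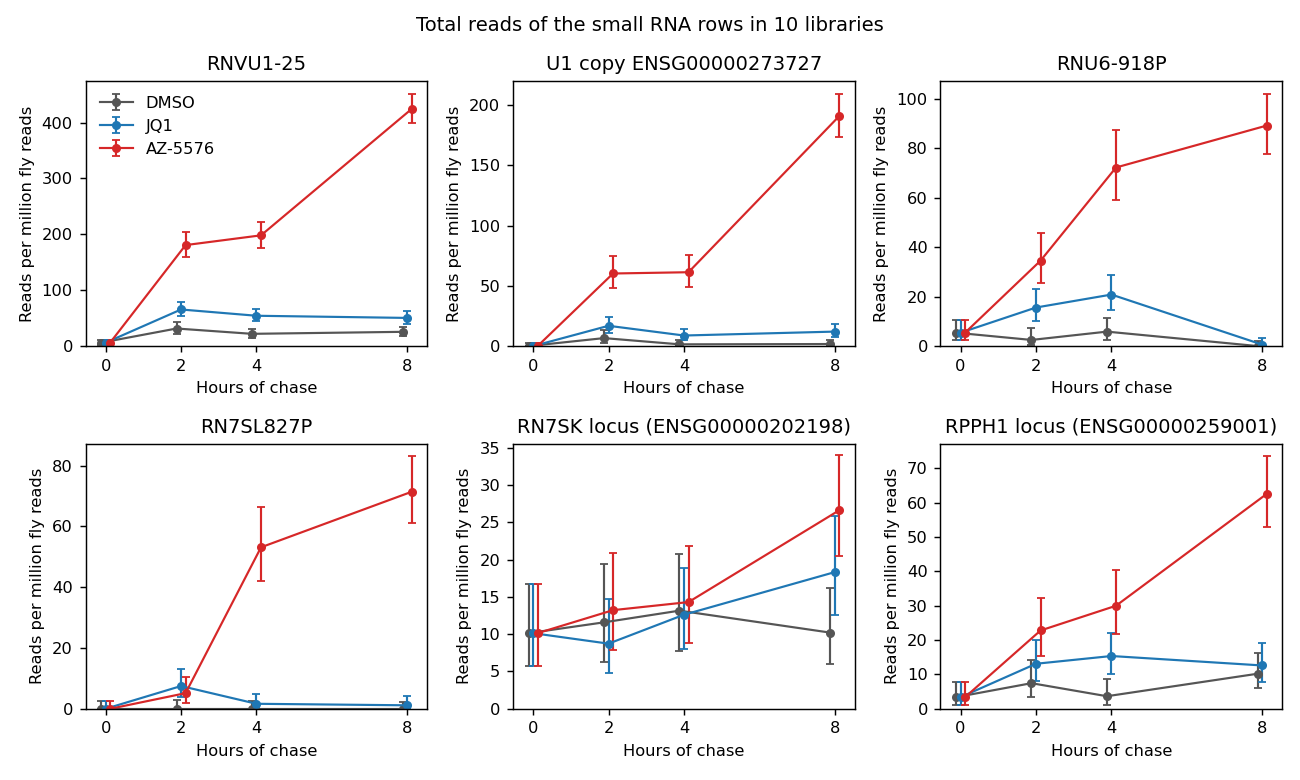
Reads per 1000000 fly reads (vertical axis, linear, its range set per panel) against hours of chase for 5 described rows and the U1 copy ENSG00000273727; each point is 1 library, the 0 h library is drawn in all 3 arms, and bars are exact 95% Poisson intervals. AZ-5576 is above DMSO at each time in every panel. Its intervals overlap those of DMSO for the RN7SK row at 2 and 4 h and for RN7SL827P at 2 h. The JQ1 and AZ-5576 intervals overlap for RN7SL827P at 2 h, for the RPPH1 row at 2 and 4 h and for the RN7SK row at 2, 4 and 8 h.

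Of the 5 rows with a mean of at least 20 total reads, all 5 had every AZ-5576 library above every DMSO library; over all 11797 genes tested the share was 0.415%. That share belongs to the contrast by which the genes were chosen, so nothing is read from it. Relative to all human reads in place of fly reads, the RNVU1-25 difference from DMSO at 8 h was 4.80 log2 units, against 4.04 per fly read. On that scale the described rows kept their direction under AZ-5576 at 8 h.

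JQ1 against DMSO was tested with edgeR's quasi-likelihood test over all 11797 genes, with 1 term for the inhibitor averaged over 2, 4 and 8 h. The DMSO libraries are also those of the AZ-5576 contrast by which the genes were chosen, so the JQ1 test is not independent of that choice. None of the 5 rows passed an adjusted p (Benjamini-Hochberg) of 0.05, nor did any other gene (0% called), although 1081 genes had an unadjusted p under 0.05; DESeq2 called 71 genes and limma 0. RNVU1-25 was 1.13 log2 units higher under JQ1 (SE 0.43, adjusted p = 0.527), higher at 3 of 3 times. Its ratio to DMSO was 2.08 at 2 h (1.42 to 3.10), 2.48 at 4 h (1.63 to 3.86) and 1.97 at 8 h (1.36 to 2.89). For RNU6-918P the edgeR difference was 2.15 (SE 1.04, adjusted p = 0.538), with ratios of 6.28 at 2 h (1.92 to 32.5) and 3.56 at 4 h (1.64 to 8.84) and 1 read against 0 at 8 h. For the row that contains RPPH1 it was 1.03 (SE 0.52, adjusted p = 0.548), and for the RN7SK row 0.12 (SE 0.47, adjusted p = 0.923), which does not show that the RN7SK row stayed the same. RN7SL827P had an unadjusted edgeR p of 0.0378 and an adjusted p of 0.532, and against DMSO libraries at 0 its fitted fold is no bound. With DMSO at the limit that 0 reads allow, it was 3.01-fold higher at 2 h of JQ1, without the counting error of the JQ1 reads.

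The spread in that fit is shared with the AZ-5576 libraries. When 0 h, DMSO and JQ1 libraries alone were fitted with edgeR, 2656 of 11797 genes were called (22.5%), of which 195 were higher (1.65%). In this fit RNVU1-25 rose by 1.11 log2 units (SE 0.30, adjusted p = 0.0262), against the DMSO libraries it shares with the choice of genes. Without the AZ-5576 libraries only RNVU1-25 would have reached a mean of 20 reads, at 59.1. Over those 7 libraries RNU6-918P had a mean of 11.9, RN7SL827P 2.43, the RN7SK row 19.1 and the row with RPPH1 15.4. Nothing is therefore read from these other 4 rows in this fit or in the JQ1 test above.

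Change in DMSO over the chase was tested as a slope in log2 counts per hour from a 0 h level shared by the 3 arms, with edgeR. Of all 11797 genes 28.2% were called, 24.4% rising and 3.81% falling. RNU6-918P passed with a slope of -0.70 log2 units per hour (SE 0.18, adjusted p = 0.00554), but its levels per 1000000 fly reads were 5.41 at 0 h and 2.48, 5.85 and 0 in DMSO, and the slope also depends on the 0 h level shared with the inhibitor arms. It was -0.34 (SE 0.21, adjusted p = 0.232) with 0 h and DMSO libraries alone, and -0.59 (adjusted p = 0.189) without the 8 h DMSO library. RN7SL827P also passed (adjusted p = 0.0158), but with 0 reads at 0 h and in DMSO its slope reflects the shared 0 h level drawn up by the inhibitor arms and is no fall of the RNA. RNVU1-25 did not pass, with a slope of -0.15 (SE 0.09, adjusted p = 0.203), and its DMSO libraries were all above 0 h, at 5.17, 3.61 and 4.20 times its level. Fitted with 0 h and DMSO libraries alone the slope was 0.13 (adjusted p = 0.350). Without the 0 h library the edgeR slope of DMSO in the fit of all arms was -0.24 (adjusted p = 0.0111). There the shared 0 h level comes from later libraries alone, among them those of AZ-5576 by which the gene was chosen. Nothing is therefore read from that slope. The row with RPPH1 (-0.02, adjusted p = 0.887) and the RN7SK row (0.03, adjusted p = 0.799) did not pass. RNU6-918P, RN7SL827P, the RN7SK row and the row with RPPH1 entered these slope tests only through their AZ-5576 reads. Nothing is therefore read from their slopes. The 0 h library and the 2 h AZ-5576 library also stood apart in the first principal component of the fly genes (42.2% of the variance, scores 0.428 and 0.707; 2 h DMSO 0.148, the others at most 0.035), and the part of this in the step from 0 h was not tested.

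Labelled reads are meant to come from RNA made during the 12 h pulse. The rule that called a read labelled is not given, and label used during the chase or called in error was not tested. An unlabelled read need not come from RNA made later, since at 0 h only 32.0% of all reads were labelled. No described row reached a mean of 20 labelled reads, so none entered the labelled RNA tests, in which 88.5% of 8817 genes were called for a DMSO slope and 0.635% for a difference between the JQ1 and DMSO slopes. RNVU1-25 had 4 labelled reads at 0 h, 8, 7 and 0 with DMSO, 13, 6 and 1 with JQ1 and 26, 20 and 18 with AZ-5576. As a share of its total reads these are 44.4% at 0 h (exact 95% interval 13.7% to 78.8%), 21.1%, 23.3% and 0% with DMSO, 12.4%, 6.06% and 1.14% with JQ1, and 10.6%, 6.87% and 1.79% (1.06% to 2.82%) with AZ-5576. The 0 of 45 reads at 8 h of DMSO allow a share of up to 6.67%. Within each arm the share was lowest at 8 h, and at 8 h of AZ-5576 it was far below the 25.5% of all reads of that library that were labelled.

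The added reads of RNVU1-25 under AZ-5576 were thus mostly unlabelled, but the labelled ones were also more than at 0 h. Labelled reads per 1000000 fly reads were 2.70 at 0 h and 19.1, 13.6 and 7.61 at 2, 4 and 8 h of AZ-5576, against 6.62, 5.12 and 0 in DMSO. The AZ-5576 value at 2 h was 7.07 times that at 0 h (2.45 to 27.9) and 2.88 times DMSO (1.27 to 7.37).

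RNU6-918P had 4 labelled of 8 reads at 0 h, and 3 of 47, 3 of 106 and 7 of 211 at 2, 4 and 8 h of AZ-5576, which are shares of 6.38%, 2.83% and 3.32%. RN7SL827P had no labelled read among its 271 reads, which allows a share of up to 1.11%; at 8 h of AZ-5576, 0 of 169 reads allow up to 1.78%. RNVU1-25 holds 54 T in 160 bases and RNU6-918P 30 in 106, and the chance that a read carries a label depends on how many T it covers. The row with RPPH1 had 0 labelled reads at 0 h and with DMSO, 3, 1 and 0 with JQ1 and 0, 2 and 3 with AZ-5576. The RN7SK row had 0 of 15 labelled at 0 h and 3 of 63 at 8 h of AZ-5576, 4.76% (0.993% to 13.3%).

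**Figure D3:**
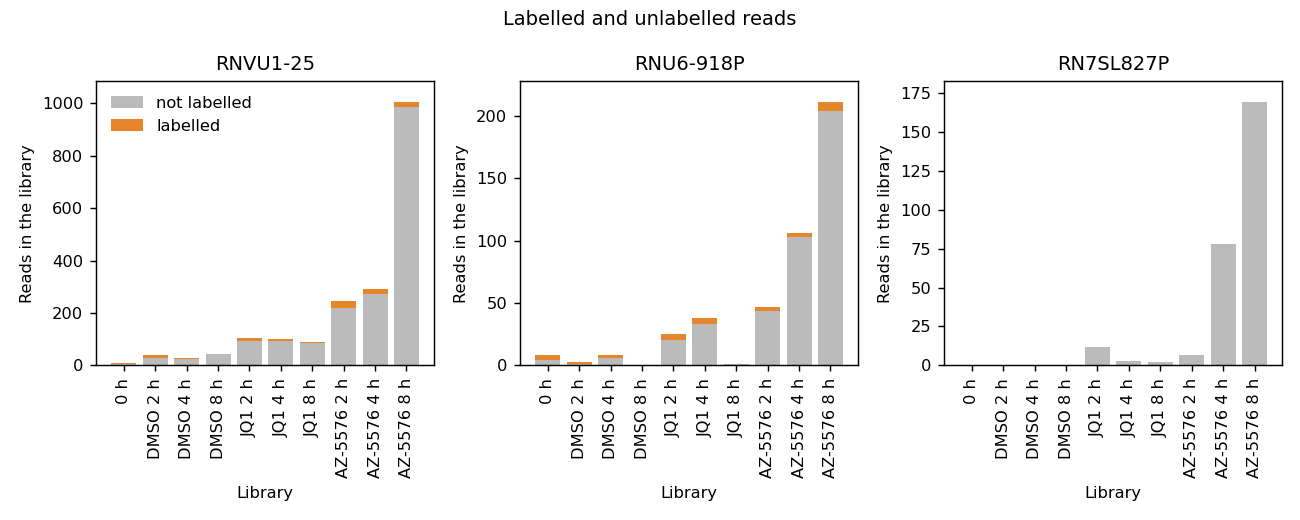
Labelled (orange) and unlabelled (grey) reads per library, stacked, for RNVU1-25, RNU6-918P and RN7SL827P (vertical axis, reads in the library, not scaled by fly reads); each bar is 1 of the 10 libraries. The tall AZ-5576 bars are almost wholly unlabelled, with 18 labelled of 1005 reads for RNVU1-25 at 8 h and none for RN7SL827P.

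Several of the rows lie downstream of coding genes. Over all rows of the small RNA families, 633 lie within 50000 bases beyond a coding gene on the same strand, 1072 inside one and 2379 elsewhere. RN7SL827P starts 27873 bases beyond the 3′ end of EEF1A1, a translation elongation factor, on the same strand, and lies in MTO1, a mitochondrial tRNA modification gene on the opposite strand, outside its annotated exons. EEF1A1 was at 0.783 of DMSO and MTO1 at 0.268 at 8 h of AZ-5576. RNU6-918P starts 16287 bases beyond the 3′ end of ANP32B, a histone chaperone gene, on the same strand, and ANP32B was at 0.379 of DMSO in that comparison. On the log2 scale EEF1A1 differed from DMSO by -0.35 and ANP32B by -1.40, against a median of -1.63 over all genes; relative to all human reads EEF1A1 stood 0.40 above DMSO. RMRP lies 857 bases beyond ARHGEF39 and the row with RPPH1 21982 bases beyond TEP1, the telomerase-associated protein, both on the same strand. RNVU1-25 and the RN7SK row have no coding gene on their strand within 50000 bases upstream.

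The genes of similar course were sought among genes with a mean of at least 100 total reads, by the root mean square difference of the 9 log2 ratios to 0 h (pseudocount 0.5). Nearest to RNVU1-25 were GCNA at 1.83 log2 units, RAPSN at 2.04 and AC107075.1 at 2.35, so none was close. For RN7SL827P the nearest was RNVU1-25 itself, at 1.62. The set was chosen by its AZ-5576 reads, which enter this measure, and RN7SL827P had 0 reads at 0 h and in DMSO. Nothing is therefore read from the nearness of these 2 rows. For RNU6-918P the nearest genes were AC073575.2 at 1.95, AL450384.2 at 2.24 and LGALS9 at 2.25, and for the row with RPPH1 GCNA at 0.97, C1orf162 at 1.12 and RAPSN at 1.17. The RN7SK row, which moved little, had close neighbours in MT-TD at 0.39, AC243732.1 at 0.39 and RPS3AP20 at 0.40.

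Protein partners of these RNAs passed the test under AZ-5576 at about the share of all genes. Of 111 listed genes 109 were tested; under AZ-5576 edgeR called 3, all lower, beside 2.48% of all genes in either direction and 2.4% lower. They were INTS14 (-1.998 log2 units, SE 0.45, adjusted p = 0.0483) and INTS12 (-1.77, SE 0.41, adjusted p = 0.0491), 2 of 15 Integrator subunits, and TGS1, which makes the trimethylated cap of small nuclear RNAs (-2.41, SE 0.54, adjusted p = 0.0483), 1 of 24 genes of end processing, export and the nuclear exosome. All lay just under the threshold. Just above it in the same edgeR test were INTS6 and POP7 (adjusted p = 0.0501 each) and INTS5 (-3.14, adjusted p = 0.0535). The median difference was -1.32 for Integrator, -1.20 for 11 promoter factors of the SNAPc group, -1.16 for the end-processing list, -1.04 for 15 RNA polymerase III genes, -0.90 for 11 RNase P and MRP proteins, -0.85 for 8 7SK and P-TEFb proteins, -0.77 for 8 signal recognition particle genes and -0.41 for 17 U1, Sm and LSm proteins, against -0.82 over all genes. Modelled as slopes over hours, 99 of the 109 passed, all lower, beside 8712 of 11797 genes. TMM scaling, which sets the median gene near 0, moved the all-gene median to -0.08 and called 7, and the U1, Sm and LSm median turned to 0.35.

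Under JQ1 the edgeR test called 0 of the 109, beside 0% of all genes. With 0 h, DMSO and JQ1 libraries alone it called 42, beside 22.5% of all genes, of which 1 was higher, beside 1.65% of all genes: HEXIM1, the 7SK-bound inhibitor of P-TEFb, at 1.43 log2 units (SE 0.21, adjusted p = 0.00573), named after its value was seen. In DMSO 30 of the 109 rose over the chase (beside 24.4% of all genes) and 0 fell, among them INTS5 by 0.29 log2 units per hour (adjusted p = 0.000097 with edgeR), TBP by 0.20, PARN by 0.20, LSM8 by 0.17, RPP25 by 0.16, POLR3B by 0.15 and SRP54 by 0.13. None of the 8 7SK and P-TEFb genes passed there.

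Among the wider families, several had their highest levels at 8 h of JQ1, not AZ-5576. RNU2-63P, a U2 row, had 104 reads at 0 h, 103, 95 and 210 with DMSO, 158, 204 and 502 with JQ1 and 143, 145 and 208 with AZ-5576. RNU4ATAC, of the minor spliceosome, had 31, 24 and 87 reads with DMSO, 43, 57 and 229 with JQ1 and 41, 26 and 55 with AZ-5576. Per fly read, the summed U2 rows at 8 h of JQ1 were at 2.41 of DMSO (exact 95% interval 2.05 to 2.85). The U5 sum was at 2.23 (1.69 to 2.96), U4atac at 2.66 (2.07 to 3.44) and U1 without RNVU1-25 at 1.92 (1.66 to 2.22). The parent genes of these families are read by RNA polymerase II. RNU2-63P held 502 of the 509 U2 reads and RNU4ATAC all 229 U4atac reads of that JQ1 library, so both sums follow 1 row. RNU5B-1 held 114 of the 170 U5 reads there, against 26 of 77 at 8 h of DMSO. It was at 4.43 of DMSO, while RNU5F-1 was at 1.25 and RNU5A-8P at 0.433, so the U5 sum rests mainly on RNU5B-1. At 2 h the ratios of the U2, U5, U4atac and U1 sums were 1.19, 1.02, 1.05 and 1.03. Among families whose parent genes are read by RNA polymerase III, U6 without RNU6-918P was at 0.830 and 7SL without RN7SL827P at 0.654. Y RNA was at 0.923, U6atac at 0.815, vault RNA at 0.863 and 5S at 0.646. The 7SK sum was at 1.22 (0.800 to 1.86), or 0.816 without the RN7SK row. Of 2 other families with RNA polymerase II parent genes, U4 was at 0.732 (0.498 to 1.07) and U7 at 1.22 (1.02 to 1.46). These are ratios of 2 libraries and were not tested. Many summed rows are copies, and 1072 family rows lie inside a coding gene on the same strand. Which polymerase made their reads was not tested.

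**Figure D4:**
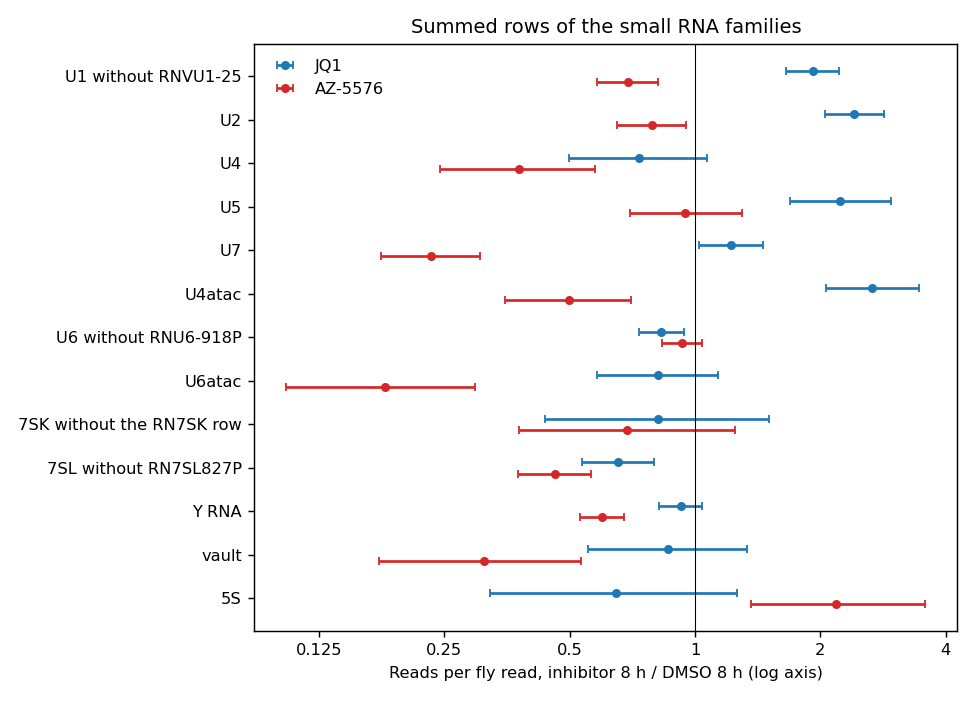
Reads per fly read at 8 h, inhibitor over DMSO, for summed rows of 13 small RNA families (horizontal log axis); points are ratios of 2 libraries and bars exact 95% intervals of counting error. U1, U2, U5 and U4atac lie above 1 under JQ1, at 1.92 to 2.66, with U7 at 1.22, and 5S lies above 1 under AZ-5576, at 2.18.

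A split of the family rows by position on the same strand was made after seeing the data. The 1072 rows inside a coding gene together were at 0.588, 0.467 and 0.369 of DMSO at 2, 4 and 8 h of AZ-5576. The 629 other rows within 50000 bases beyond a coding gene were at 0.698, 0.959 and 0.974, and the 2377 rows elsewhere at 0.924, 1.34 and 0.844. Under JQ1 the ratios were 0.775, 0.897 and 0.941 inside genes, 0.911, 1.19 and 1.48 beyond genes and 0.901, 1.42 and 1.45 elsewhere. The described genes are left out of these sums, and no test was made.

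**Figure D5:**
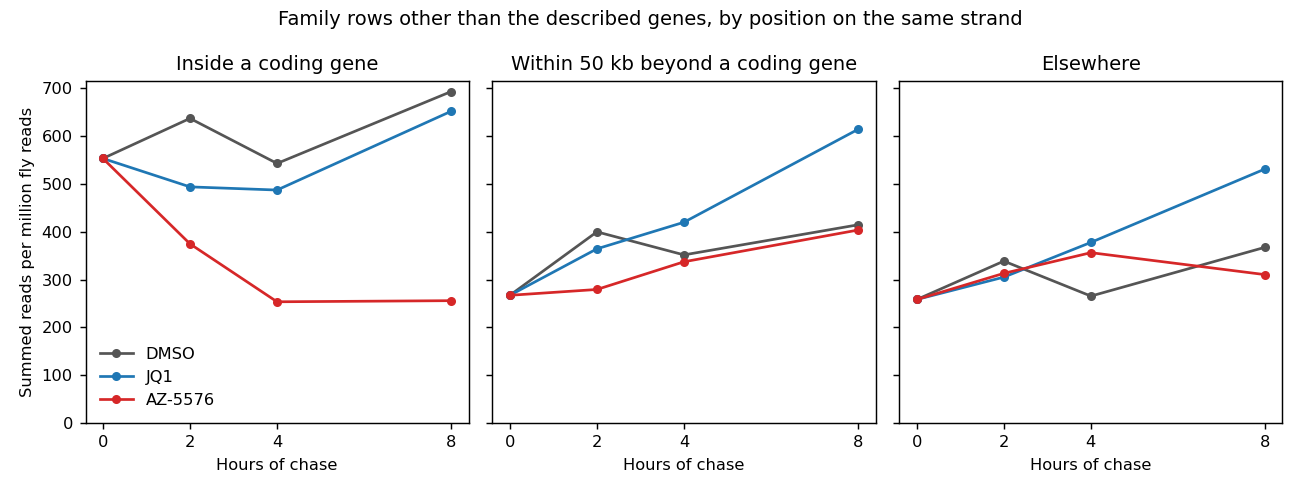
Summed reads per 1000000 fly reads (vertical axis) against hours of chase for family rows inside a coding gene, within 50000 bases beyond one, and elsewhere, with the described genes left out; each point is 1 library and the 0 h library is drawn in all arms. The AZ-5576 line falls to 256 at 8 h inside genes, from 553 at 0 h, and ends at 404 beyond genes and 310.2 elsewhere.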

How the data were processed

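Total, labelled (nascent) and fly reads were deposited by the authors as raw read counts per gene, 1 column for each of the 10 libraries. The tools named are Trim Galore (0.6.5), bedtools and bcl2fastq (2.17.1.14), with no role stated, per the submitters' processing notes. The aligner, counting tool, annotation, treatment of reads matching several genes and the rule for labelled reads are not given in the sources used here. Rows were matched by name (4) or by at least 90% overlap on the same strand (2). The described genes and the lists were chosen with earlier results of these data known. Counts were scaled to the fly read sum of each library. Ratios of 2 libraries carry exact conditional binomial intervals and shares Clopper-Pearson intervals (95%). A count of 0 is set at 3 reads, and a fold against it leaves out the counting error of the other library. Rows with a mean of at least 20 reads (11797 total, 8817 labelled) were fitted with edgeR 4.0.16 (R 4.3.3), quasi-likelihood, Benjamini-Hochberg threshold 0.05, by 1 level per time plus 1 term per inhibitor, or by a common 0 h level plus 1 slope per arm. The fits were tested on simulated data. DESeq2 1.42.0, limma 3.58.1, TMM scaling, other filters and left-out libraries were alternatives. Named rows are the described genes, the 3 rows with the most reads per family, the 2 largest passing changes per protein list and the 3 nearest genes in course; others are said to be chosen after their values were seen, as were RNVU1-26, RNVU1-24, ENSG00000273727 and the neighbouring genes. Sequences and positions are GENCODE v29 (GRCh38). A marker gene and some sequences are not reported here.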

Additional observations from a re-analysis of the deposited data

How the results depend on the processing

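No paired analysis was possible because each condition has 1 library and the replicate numbers pair nothing. For JQ1 against DMSO in total RNA the count of 0 called genes became 4 with TMM scaling, 212 with no filter, 71 with DESeq2, 2128 as slopes over hours, 2656 with 0 h, DMSO and JQ1 libraries only, 228 without all 2 h libraries, 1 without all 4 h, 19 without all 8 h, and 1 with the fly component as covariate, which was added once the data had been seen; leaving out 1 library at a time gave 0 to 0. The DMSO slope in total RNA called 3325, and 472 (without DMSO at 8 h) to 3072 with 1 library left out. The labelled DMSO slope called 7805, 4333 with TMM scaling, 4289 at a mean count of at least 100 and 3354 (without DMSO at 8 h) to 8115 with 1 library left out. The labelled JQ1 slope against DMSO called 56, 91 with TMM scaling, 34 at a mean count of at least 100, 37 with DESeq2, 179 with limma, 4 with 1 level per time, 543 as the labelled share of the row and 9 to 83 with 1 library left out (9 without DMSO at 8 h, 22 without JQ1 at 4 h, 16 without JQ1 at 8 h). For the protein lists under AZ-5576 TMM scaling gave 7 and slopes 99, against 3. Fewer libraries and more genes tested are part of these settings; otherwise the cause was not tested.

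Among the described rows the JQ1 difference of RNVU1-25 ran from 0.18 to 1.47 log2 units over 18 alternatives with adjusted p from 0.0262 to 1, and it passed in 1. That of RNU6-918P ran from 0.43 to 2.99 and passed in 1 of 17, that of RN7SL827P passed in 2 of 17 (with no filter, adjusted p = 0.00719), and that of the row with RPPH1 ran from 0.12 to 1.45 and passed in 0 of 17. Rows other than RNVU1-25 reached a mean of 20 reads only through their AZ-5576 libraries, and RN7SL827P had 0 reads in DMSO. Nothing is therefore read from their passes. The JQ1 difference of the RN7SK row ran from -0.25 (without DMSO at 8 h) to 0.34 with 1 library left out. It was -0.01 without JQ1 at 8 h and -0.22 without all 8 h libraries. Its DMSO slope turned to -0.011 with TMM scaling and -0.0024 with 0 h and DMSO libraries only, a setting chosen after seeing the data, in which RNVU1-25 turned to 0.13 and the row with RPPH1 to 0.16; the latter was also 0.0073 with limma and ran from -0.34 to 0.0030 (without DMSO at 4 h) with 1 library left out. Summed over the 7SL family, the 8 h AZ-5576 difference of RN7SL827P turned to -0.094, that of the RN7SK row became 0.55 over the 7SK family and that of RNU6-918P 0.26 over the U6 family. Depth limits the labelled reads of every described row and all values of RMRP.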

Other observations

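Other rows of these families also differed between the AZ-5576 and DMSO libraries, with no test made. RNU7-115P, a U7 row, had 61 reads at 0 h, 129, 166 and 191 with DMSO, 102, 190 and 243 with JQ1 and 13, 17 and 50 with AZ-5576. RNU6ATAC27P had 27, 37 and 68 reads in DMSO and 32, 1 and 1 in AZ-5576. RNA5SP427, a 5S copy, had 0 reads at 0 h and in DMSO and 23, 33 and 13 in AZ-5576. RNU12, the U12 gene, had 21 of its 30 reads at 8 h of AZ-5576. The Y RNA row ENSG00000206659 had 43, 59 and 93 reads in DMSO and 3, 0 and 5 in AZ-5576.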
